A study of Mus musculus with 12 samples.

Results

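The T cell receptor comes as an alpha-beta or a gamma-delta pair, and each chain is built from gene segments. The transcripts described here are those of the variable (V), diversity (D), joining (J) and constant (C) segments of the gamma (Trg), delta (Trd) and alpha (Tra) loci of the mouse. Members were all genes of the deposited count table whose symbol belongs to these loci and that held at least 10 counts summed over the 12 libraries. That left 60 of the 43629 genes in the table. The gamma locus gave 12 members (7 V, 1 J and 4 C), the delta locus 8 (4 V, 2 D and 2 J) and the alpha locus 40 (34 V, 5 J and 1 C). Of the 184 segment genes of these loci in the table, 59 had no count at all and 65 had 1 to 9 counts. At the edge of the rule, Traj58 and Trdd1 entered with 10 counts each and Traj30 with 11, while Trav12-3, Trav16n and Trav5-4 stayed out with 9 each. The delta constant gene and 3 of the 4 gamma J segments were not analysed here.

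The cells were pre-T cells sorted from the thymus of C57BL/6 mice, and total RNA was sequenced after removal of ribosomal RNA. There were 3 groups with 4 libraries each. All mice carried floxed alleles of Zfp36l1 and Zfp36l2 (Zfp36l1fl/fl, Zfp36l2fl/fl), a pair of genes for RNA-binding proteins with zinc fingers that act on AU-rich elements of messenger RNA. The controls had no Cre and gave DN3a and DN3b cells, stages of CD4-negative, CD8-negative thymocytes before and after beta selection, the checkpoint that tests the rearranged beta chain. The third group, called DCKO, held DN3-like cells of mice that also carried CD2cre, a Cre transgene named after the lymphocyte gene Cd2. DCKO mice thus differ from the controls by Cre as well as by the deletion, and their cells were not divided into DN3a and DN3b, so these differences cannot be told apart. The labels give neither the age of the mice nor the number of mice per library.

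Gamma, delta and beta loci rearrange in immature CD4-negative, CD8-negative thymocytes, before the alpha locus, which opens at the later CD4 and CD8 expressing stage. RAG proteins cut beside a V and a J segment, with a D segment between them at the delta locus, and the joined exon is spliced to a C gene. Unrearranged segments are transcribed as well, so a count on a V, J or C gene does not by itself say that the gene was joined. The mouse gamma locus holds 4 clusters, each with its own V, J and C segments. The delta locus lies inside the alpha locus, and V segments with dv in their symbol can be used for an alpha or a delta chain.

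Libraries held 28479157 to 45975678 counts, and members took 0.222% ± 0.0141 of them (DN3a), 0.0855% ± 0.0142 (DN3b) and 0.0419% ± 0.0163 (DCKO) (SD, n = 4 libraries, here and below). The targeted genes were depleted in DCKO: Zfp36l1 ranged from 1.64 to 3.80 CPM there against 9.63 to 43.9 over the control libraries, and Zfp36l2 from 45.4 to 87.9 against 287.0 to 685.0. CPM is a count relative to the size of its library, which was scaled by TMM, edgeR's trimmed mean method. All 12 genes of a list of DN3 markers reached 1 CPM in each group, with sums of 7592.8 to 11024.8 CPM (DN3a), 5062.0 to 7348.2 (DN3b) and 8316.2 to 13026.7 (DCKO). The 11 markers of gamma-delta T cells summed to 317.2 to 635.5, 189.0 to 489.0 and 144.3 to 737.9 CPM. Most of these sums came from 5830411N06Rik (means of 231.5, 145.5 and 179.3 CPM) and Il17rb (194.7, 106.0 and 111.8 CPM). Of the 11, 3 (DN3a), 3 (DN3b) and 4 (DCKO) stayed below 1 CPM in every library. Ccr6, a marker of the interleukin 17 producing subset, was at 0 in all 12 libraries, and Il23r had 0 (DN3a), 2 (DN3b) and 4 counts (DCKO). Of 8 B cell markers and of 7 markers of innate and cytotoxic lymphocytes, 6 each stayed below 1 CPM in every library of each group. The others were Ighm (61.0 to 116.7, 211.6 to 375.0 and 130.1 to 175.3 CPM in DN3a, DN3b and DCKO), Cd79b (41.7 to 58.1, 9.4 to 31.7 and 18.4 to 24.1 CPM) and the cytotoxic granule gene Nkg7 (54.5 to 57.7, 6.21 to 27.6 and 17.8 to 29.4 CPM). The 8 myeloid markers summed to 20.5 to 32.3, 3.29 to 11.9 and 9.71 to 21.6 CPM, with the lysozyme gene Lyz2 at 18.2 to 29.8, 1.01 to 8.83 and 6.12 to 14.3 CPM. Cd79b, Nkg7 and Lyz2 were thus higher in every DN3a library than in any other, as the summed gamma level was. Other markers of these lists were not. Ighm and the myeloid marker Cebpb (0.59 to 0.877, 1.69 to 1.85 and 1.56 to 2.46 CPM) were lower in every DN3a library than in any other. Itgam, also a myeloid marker, stood at 0.812 to 1.79, 0.228 to 0.762 and 0.889 to 3.25 CPM. The part of such cells in the gamma results was not tested. In DCKO library 1 a single feature took 9.02% of the counts (up to 2.61% in the others), and in DCKO library 2 Gm42418 and Lars2 together took 1.71% (up to 0.0682% in the control libraries), so results were also computed without these libraries.

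The J segments below are shown because delta J segments did not fall in DCKO while delta V segments did. They are printed 5′ to 3′ from the annotated transcripts (GENCODE M21, GRCm38), and capitals mark the letters TTTGNNNNNGG, which in most J segments encode a stretch from phenylalanine to glycine.
Trdj1: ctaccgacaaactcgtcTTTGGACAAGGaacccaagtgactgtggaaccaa
Trdj2: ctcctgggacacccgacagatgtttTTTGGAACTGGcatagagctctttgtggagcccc
Trgj4: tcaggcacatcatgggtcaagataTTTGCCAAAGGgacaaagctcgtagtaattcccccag
Traj58: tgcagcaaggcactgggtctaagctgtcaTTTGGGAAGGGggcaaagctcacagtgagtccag
Traj30: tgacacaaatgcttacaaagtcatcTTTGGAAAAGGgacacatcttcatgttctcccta
The letters were found on the coding strand in 43 of 66 annotated J segments (65.2%) and, on both strands, in 3.40% of windows of 60 bases from mouse promoters. Such short segments (51 bases for Trdj1, 61 for Trgj4) offer few positions for a read to start, so their levels are not compared with those of V and C genes.

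The V segments are shown by their last 45 bases, where a joined chain begins to vary. Capitals mark TANNNCTGN, a tyrosine codon, 1 further codon and the conserved cysteine codon near the end of a V segment, found in 136 of 141 annotated V ends (96.5%) and in 6.80% of promoter windows of 45 bases (both strands).
Trgv2: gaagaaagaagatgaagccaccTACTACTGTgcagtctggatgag
Tcrg-V1: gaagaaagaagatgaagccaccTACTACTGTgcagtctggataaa
Tcrg-V3: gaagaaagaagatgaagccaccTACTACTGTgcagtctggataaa
Tcrg-V4: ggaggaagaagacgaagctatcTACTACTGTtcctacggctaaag
Tcrg-V7: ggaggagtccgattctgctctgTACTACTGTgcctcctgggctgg
Tcrg-V5: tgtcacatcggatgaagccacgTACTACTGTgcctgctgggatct
Trdv5: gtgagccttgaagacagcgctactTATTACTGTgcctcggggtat
Trdv2-2: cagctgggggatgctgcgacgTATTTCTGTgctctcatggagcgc
Trdv1: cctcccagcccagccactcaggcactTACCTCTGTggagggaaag
Trav17: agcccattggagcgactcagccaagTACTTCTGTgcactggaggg
Trav18: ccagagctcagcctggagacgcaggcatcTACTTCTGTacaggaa
Trav21-dv12: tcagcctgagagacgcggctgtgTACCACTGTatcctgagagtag
The ends of Tcrg-V1 and Tcrg-V3 are identical, and over their whole aligned transcripts Tcrg-V1 was 95.7% identical to Trgv2 and 95.7% to Tcrg-V3. Trgv2 and Tcrg-V4 were 71.8% identical.

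Gamma C genes are near copies of one another as well, which bears on every count assigned to them. Here are the first 120 bases of each C gene, with capitals where a base differs from Tcrg-C1.
Tcrg-C1: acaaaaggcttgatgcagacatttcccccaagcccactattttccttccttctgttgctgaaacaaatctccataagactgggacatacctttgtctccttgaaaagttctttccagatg
Tcrg-C2: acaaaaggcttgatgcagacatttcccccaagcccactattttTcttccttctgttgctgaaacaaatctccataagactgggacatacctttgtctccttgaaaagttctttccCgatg
Tcrg-C3: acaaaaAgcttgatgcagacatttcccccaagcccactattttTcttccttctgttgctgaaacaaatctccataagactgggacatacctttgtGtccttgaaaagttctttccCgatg
Tcrg-C4: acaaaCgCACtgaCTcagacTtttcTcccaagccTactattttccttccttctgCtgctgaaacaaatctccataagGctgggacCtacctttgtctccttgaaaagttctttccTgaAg
Tcrg-C2 differed from Tcrg-C1 at 2 of these bases, Tcrg-C3 at 4 and Tcrg-C4 at 14. Over the aligned transcripts, identity to Tcrg-C1 was 96.1%, 97.2% and 73.1% in that order. The longest stretch without a difference was 122 bases between Tcrg-C1 and Tcrg-C3 and 104 bases between Tcrg-C1 and Tcrg-C2. The treatment of reads that match more than 1 copy is not given in the sources used here, and the split of counts among Tcrg-C1, Tcrg-C2 and Tcrg-C3, and among Trgv2, Tcrg-V1 and Tcrg-V3, is uncertain. Tcrg-V4 and Tcrg-V7 shared no stretch longer than 14 bases with another annotated segment.

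Across the 3 loci, members with enough counts to test numbered 33: all 12 of the gamma locus, 5 of the delta locus and 16 of the alpha locus. The other 27 held 10 to 90 counts each. A member that passed this filter through the 1 group where it is high had to differ, so the counts that follow describe the loci and support nothing further. DN3b against DN3a gave 12 members lower and 3 higher, where 25.2% of all 13944 genes tested were lower and 27.4% higher (edgeR quasi-likelihood test, adjusted p below 0.05). Of all tested members, called or not, 9 lay lower and 3 higher in DN3b with no overlap of the libraries, beside 23.0% and 24.8% of all genes. In DCKO against DN3a, 24 members were lower and 0 higher, beside 29.5% lower and 30.7% higher over all genes. The 0 became 1 (Trdj1) at an unadjusted p below 0.05, 1 with DESeq2 (Traj59) and stayed 0 with limma-voom. Here 21 lower and 0 higher members showed no overlap, beside 27.1% and 27.8%. Against DN3b, 19 members were lower in DCKO and 1 higher, beside 8.58% and 10.3% of all genes, and 22 and 1 showed no overlap, beside 9.87% and 11.0%. The median log2 fold change of the tested members was -0.14, -2.36 and -2.04 in these comparisons, beside -0.022, -0.041 and -0.022 over all genes. Both DCKO comparisons use the same 4 DCKO libraries, and each pair of comparisons shares 1 group, so they are not independent of each other. In bulk RNA, fewer cells that carry a transcript and less of it per cell cannot be told apart.

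All gamma members but Tcrg-V5 fell from DN3a to DN3b. In DCKO, 6 of the 7 V segments were lower than in DN3a and 5 than in DN3b, beside 29.5% and 8.58% of all genes. V counts in DCKO also stood lower in relation to the C counts of each cluster. Summed over its 12 members, the gamma locus stood at 1916 ± 104.0 CPM (DN3a), 821.7 ± 130.0 (DN3b) and 433.9 ± 172.5 (DCKO). The DN3a libraries (1772 to 2017 CPM) lay above all others, while those of DN3b (653.7 to 970.9) and DCKO (276.8 to 674.4) overlapped. Between the control stages, 11 of the 12 gamma members were lower in DN3b and none was higher (edgeR; 0 higher also at an unadjusted p below 0.05, with DESeq2 and with limma-voom). Over all genes, 25.2% were called lower and 27.4% higher in this comparison. Libraries did not overlap for 8 of the 12, beside 23.0% of all genes lower without overlap.

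Among the gamma V segments, Trgv2 (ENSMUSG00000076754, GRCm38 chr13:19336573-19337167, minus strand) was the most abundant. It is the V segment of the inverted cluster that ends in Tcrg-C2. Trgv2 stood at 334.4, 277.9, 240.9 and 283.2 CPM in the DN3a libraries, at 136.3, 133.5, 125.8 and 158.0 in DN3b, and at 22.9, 25.7, 29.4 and 14.1 in DCKO. No groups overlapped. From DN3a to DN3b it fell by 1.04 ± 0.18 (SE) on the log2 scale (adjusted p = 0.00051). DCKO was 12.3-fold lower than DN3a (log2 -3.62 ± 0.20, adjusted p = 4.2e-07) and 6.00-fold lower than DN3b (-2.59 ± 0.19, adjusted p = 5.1e-06).

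Tcrg-V4 (ENSMUSG00000076745, chr13:19184974-19185506, plus strand), one of 4 V segments in the cluster of Tcrg-C1, had the largest fall of all tested members in DCKO against DN3a. Its libraries held 157.9, 121.8, 101.2 and 121.1 CPM in DN3a, 50.1, 48.8, 45.1 and 52.0 in DN3b, and 2.90, 3.28, 5.28 and 2.93 in DCKO. Again no library of one group reached another group. The log2 fold change was -1.36 ± 0.18 in DN3b against DN3a (adjusted p = 8.2e-05). It was -5.11 ± 0.21 in DCKO against DN3a (adjusted p = 4.4e-08), a 34.6-fold lower level. Against DN3b it was -3.75 ± 0.20 (adjusted p = 1e-06). Tcrg-V4 made up 27.6% ± 0.991 of all gamma V counts (DN3a), 23.6% ± 1.32 (DN3b) and 11.7% ± 2.03 (DCKO), again without overlap, while the share of Trgv2 went from 62.8% ± 1.11 over 66.3% ± 0.536 to 73.8% ± 6.17.

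Tcrg-V7, from the same cluster, stood at 14.2, 10.7, 10.3 and 11.5 CPM in DN3a, 3.81, 3.51, 3.05 and 2.47 in DN3b, and 0.887, 0.473, 1.18 and 1.15 in DCKO. It fell by 1.86 ± 0.25 on the log2 scale between the control stages (adjusted p = 9.2e-05), and DCKO lay below DN3a (log2 -3.66 ± 0.27, adjusted p = 2e-06). Its groups did not overlap.
Tcrg-V1, the V segment next to Trgj4 and Tcrg-C4, stood at 34.0, 23.7, 22.2 and 27.0 CPM in DN3a, 11.5, 13.4, 15.8 and 24.0 in DN3b, and 2.14, 2.06, 3.27 and 2.97 in DCKO. The control stages overlapped, through DN3b library 4, and DCKO lay below both. In DCKO it was 10.2-fold lower than in DN3a (log2 -3.35 ± 0.26, adjusted p = 2.3e-06) and 6.16-fold lower than in DN3b (-2.62 ± 0.25, 2.8e-05). The fall from DN3a to DN3b (-0.73 ± 0.23, adjusted p = 0.018) missed the threshold without DN3a library 1 (0.0572) or DN3b library 2 (0.0538), and had an adjusted p of 0.0124 with the replicate number as a block.

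Tcrg-V3 and Tcrg-V6 were scarce in every group. Tcrg-V3 held 3.13, 2.74, 1.92 and 6.66 CPM in DN3a, 0.786, 0.786, 0.876 and 2.67 in DN3b, and 0, 0.0557, 0.288 and 0.0638 in DCKO, where it rested on 15 counts. Its fall in DCKO against DN3a was -4.97 ± 0.73 (adjusted p = 9e-05). Against DN3b it was -3.47 ± 0.73 (adjusted p = 0.0059), and 0.0771 without DCKO libraries 1 and 2. Its lower level in DN3b than in DN3a (-1.51 ± 0.56, adjusted p = 0.038) missed the threshold without DN3a library 2 or 4 or without DN3b library 1, 2 or 3 (adjusted p from 0.0503 to 0.143), and was 0.000406 with the replicate number as a block, since same-numbered DN3a and DN3b libraries are paired. Tcrg-V6 went from 1.02 ± 0.570 CPM in DN3a over 0.434 ± 0.103 to 0.193 ± 0.124 in DCKO. Its fall in DCKO against DN3a was -2.39 ± 0.51 (adjusted p = 0.0013), while the fall in DN3b (-1.22 ± 0.46, adjusted p = 0.038) was lost with limma-voom (0.0575) and without DN3a library 1 or 2 or DN3b library 2, 3 or 4 (0.0613 to 0.131), and passed with the block (0.0102).
Tcrg-V5, the V segment of the skin gamma-delta T cells that arise in the fetal thymus, was the only gamma member called in no comparison and was singled out here after its values were seen. Its libraries held 0.236, 0.336, 0.403 and 0.455 CPM in DN3a, 0.333, 0.295, 0.0796 and 0.130 in DN3b, and 0.887, 0.529, 0.261 and 0.287 in DCKO. DCKO overlapped both control groups (log2 0.43 ± 0.48, adjusted p = 0.46, against DN3a, and 1.16 ± 0.50, adjusted p = 0.13, against DN3b).

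**Figure D1:**
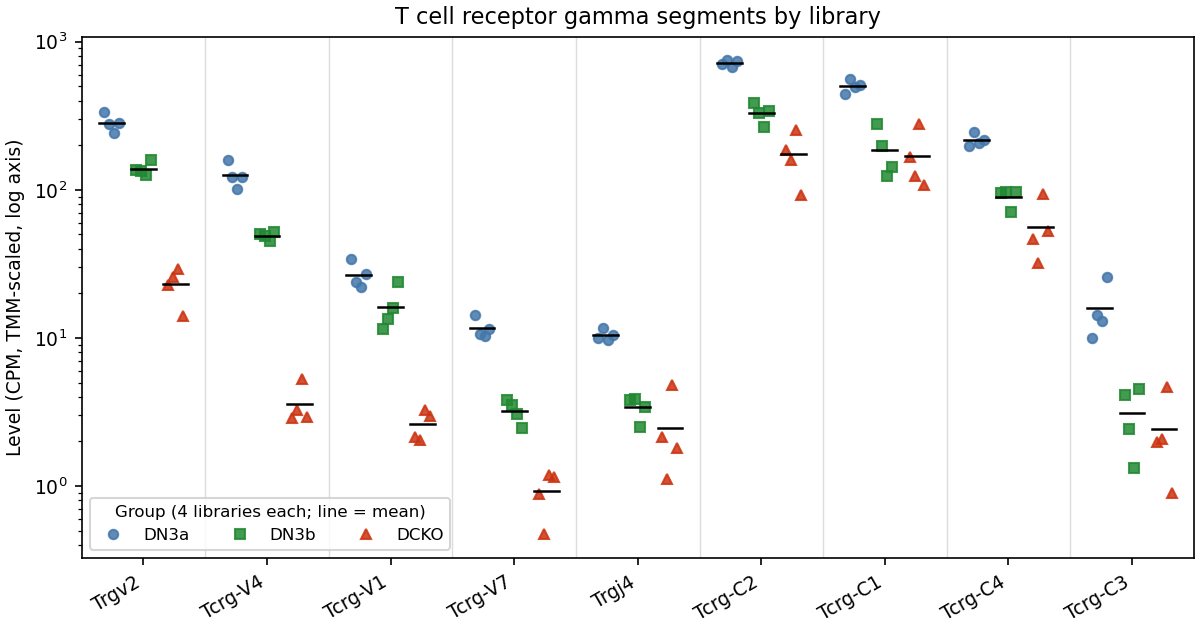
Levels of 9 gamma segments in each library, in CPM on a log axis, with V segments left, Trgj4 in the middle and C genes right; each point is 1 library and the bars are group means. The V segments Trgv2 and Tcrg-V4 stand lower in every DCKO library than in any control library, while Tcrg-C1 overlaps between DN3b and DCKO.

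Gamma C genes encode the constant part shared by all chains of a cluster. All 4 fell from DN3a to DN3b, and all 4 were lower in DCKO than in DN3a, beside 25.2% and 29.5% of all genes. Tcrg-C2 (ENSMUSG00000076752, chr13:19304649-19307551, minus strand) stood at 710.4, 746.9, 669.8 and 736.2 CPM in DN3a, 388.4, 331.5, 263.7 and 342.5 in DN3b, and 185.4, 160.0, 254.7 and 92.6 in DCKO. The groups did not overlap. It fell by 1.11 ± 0.23 on the log2 scale in DN3b (adjusted p = 0.0015) and by 2.05 ± 0.24 in DCKO against DN3a (adjusted p = 1.7e-05). The further fall in DCKO against DN3b (-0.94 ± 0.23, adjusted p = 0.013) was the only one of a gamma C gene to pass the test, and it had an adjusted p of 0.115 without DCKO libraries 1 and 2.

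Tcrg-C1 (ENSMUSG00000076749, chr13:19214103-19217024, plus strand) stood at 446.2, 559.0, 494.1 and 513.1 CPM in DN3a, 276.2, 197.9, 124.8 and 143.1 in DN3b, and 166.9, 124.1, 276.6 and 107.0 in DCKO. Both lower groups lay below DN3a and overlapped each other widely. The log2 fold changes were -1.44 ± 0.29 in DN3b (adjusted p = 0.0013) and -1.58 ± 0.29 in DCKO (adjusted p = 0.00051) against DN3a, and -0.14 ± 0.29 in DCKO against DN3b (adjusted p = 0.77). That last value turned positive without DN3b library 1 (0.12), without DCKO library 4 (0.03) and without DCKO libraries 1 and 2 (0.05). Tcrg-C1 thus stood near its DN3b level in DCKO, whereas Tcrg-V4 and Tcrg-V7 upstream of it stood 13.5-fold and 3.48-fold below theirs.

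Tcrg-C4 (ENSMUSG00000076757, chr13:19344558-19352756, plus strand) stood at 198.8, 247.2, 207.9 and 216.9 CPM in DN3a, 94.9, 95.9, 70.3 and 96.8 in DN3b, and 46.3, 32.2, 93.7 and 53.0 in DCKO. DN3a lay above the other groups, which overlapped through DCKO library 3. The falls against DN3a were -1.28 ± 0.25 in DN3b (adjusted p = 0.00098) and -1.95 ± 0.25 in DCKO (adjusted p = 4e-05). Its DCKO level stood at a log2 fold change of -0.67 ± 0.25 from DN3b, which missed the threshold (adjusted p = 0.076) and passed it with limma-voom (0.0444) or without DCKO library 3 (-1.05, 0.00316).
Trgj4, the J segment of the same cluster, was called lower in the same comparisons as Tcrg-C4. It had 10.5 ± 0.905 CPM (DN3a), 3.41 ± 0.642 (DN3b) and 2.47 ± 1.62 (DCKO), which is 4.81 ± 0.173, 3.79 ± 0.290 and 4.16 ± 0.854 Trgj4 counts per 100 Tcrg-C4 counts. This ratio was lower in every DN3b library (3.53 to 4.04) than in any DN3a library (4.63 to 5.03), and DCKO overlapped both (3.43 to 5.14). The ratio was not tested. The falls of Trgj4 against DN3a were -1.62 ± 0.34 (adjusted p = 0.0018) in DN3b and -2.08 ± 0.35 (adjusted p = 0.00026) in DCKO. Between DCKO and DN3b the change was -0.46 ± 0.35 (adjusted p = 0.38), or -1.04 (adjusted p = 0.0186) without DCKO library 3.
Tcrg-C3 was the least abundant C gene, with 15.8 ± 6.97, 3.10 ± 1.5 and 2.41 ± 1.61 CPM. It fell by 2.35 ± 0.49 in DN3b (adjusted p = 0.0015) and by 2.70 ± 0.50 in DCKO (adjusted p = 0.00047) against DN3a, with -0.35 ± 0.48 between DCKO and DN3b (adjusted p = 0.65).

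The V and C genes of each cluster can be set against each other within a library, which removes the library size from the comparison. In the cluster of Tcrg-C1, there were 39.0, 24.0, 22.8 and 26.1 V counts per 100 C counts in DN3a, 19.8, 26.9, 38.9 and 38.4 in DN3b, and 2.97, 3.54, 2.54 and 4.14 in DCKO. For Trgv2 to Tcrg-C2 the values were 47.1, 37.2, 36.0 and 38.5, then 35.1, 40.3, 47.7 and 46.1, then 12.4, 16.1, 11.6 and 15.2. Tcrg-V1 to Tcrg-C4 gave 12.5 ± 3.32, 18.3 ± 6.22 and 5.02 ± 1.26, and Tcrg-V3 to Tcrg-C3 gave 22.7 ± 7.24, 44.2 ± 22.1 and 3.99 ± 3.28. In each of the 4 clusters the control stages overlapped and every DCKO library lay below every control library. On average the DCKO ratio lay 8.47-fold below DN3a and 9.39-fold below DN3b in the C1 cluster, 2.88-fold and 3.07-fold in the C2 cluster, 5.69-fold and 11.1-fold in the C3 cluster, and 2.48-fold and 3.64-fold in the C4 cluster. Summed over all clusters the ratio was 31.3 ± 5.88 (DN3a), 35.2 ± 7.19 (DN3b) and 8.12 ± 1.59 (DCKO). DCKO library 3, which had the highest summed gamma level of its group, had the lowest of these ratios (6.36). V and C genes differ in length and a V segment can be counted before it is joined, so the ratio is not a share of joined chains.

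**Figure D2:**
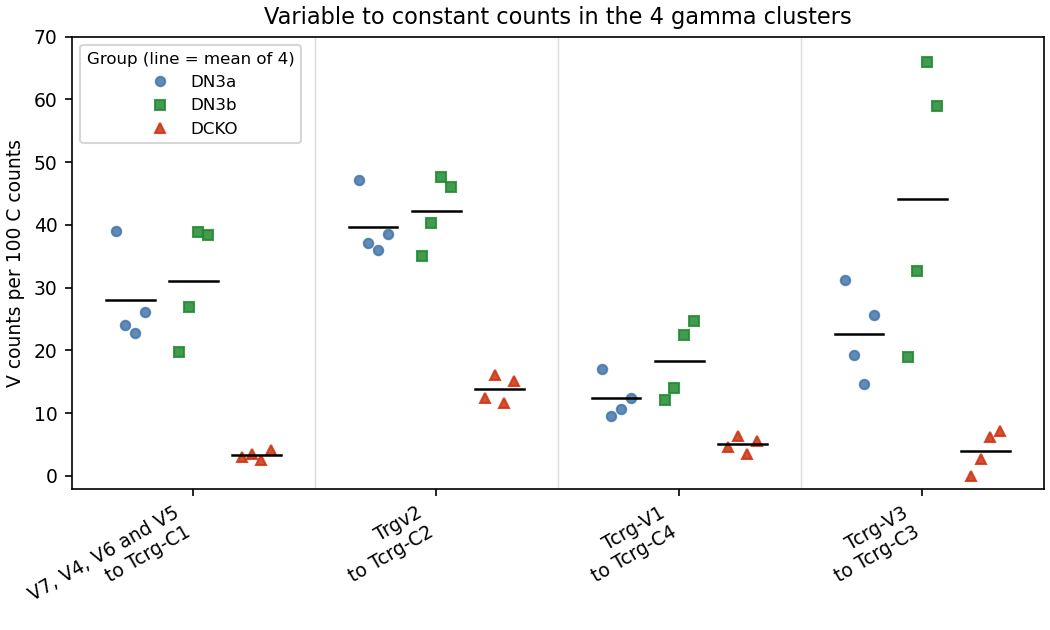
V counts per 100 C counts in each gamma cluster and library; points are libraries and bars are group means. In all 4 clusters the DCKO libraries lie below the DN3a and DN3b libraries, which overlap each other.

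Levels of different genes are comparable only per length. In CPM per kilobase of annotated exon, DN3a ranked Tcrg-C2 first (783.2 ± 37.5), followed by Trgv2 (578.6 ± 78.3), Tcrg-C1 (544.5 ± 50.5), Tcrg-V4 (294.6 ± 55.4) and Tcrg-C4 (221.0 ± 21.3). Trgv2 did not differ from Tcrg-C1 beyond the spread of the libraries, nor Tcrg-V4 from Tcrg-C4. In DCKO the order changed: the C genes Tcrg-C2 (189.5 ± 73.3), Tcrg-C1 (182.5 ± 82.5) and Tcrg-C4 (57.2 ± 26.8) came first, then Trgv2 (46.9 ± 13.3) and Tcrg-V4 (8.45 ± 2.66). There Tcrg-C2 overlapped Tcrg-C1, and Tcrg-C4 overlapped Trgv2.

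Delta segments did not follow the gamma pattern between the control stages, and in DCKO the delta V segments fell while the delta J segments did not. The summed delta level hardly moved: 25.5 ± 1.75 CPM (DN3a), 26.3 ± 2.30 (DN3b) and 23.8 ± 5.43 (DCKO), with all groups overlapping. This sum hides opposite parts. Delta V segments summed to 8.0 ± 0.744, 9.88 ± 1.61 and 1.43 ± 0.186 CPM, and delta J segments to 17.3 ± 2.25, 16.3 ± 1.44 and 22 ± 5.40. In DN3b against DN3a none of the 5 tested delta members passed the test with edgeR, at an unadjusted p below 0.05 or with limma-voom, and 1 passed with DESeq2 (Trdv1). Over all genes, 27.4% were higher and 25.2% lower in that comparison. In DCKO all 3 tested V segments were lower than in DN3a and than in DN3b, beside 29.5% and 8.58% of all genes.

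Trdv5 (ENSMUSG00000076873, chr14:54148662-54149294, minus strand) is the delta V segment that lies downstream of the constant gene in inverted orientation. It held 6.34, 5.15, 5.45 and 6.21 CPM in DN3a, 5.14, 6.36, 6.45 and 6.87 in DN3b, and 0.766, 1.06, 0.837 and 0.606 in DCKO. The controls overlapped fully and DCKO lay far below both. Its log2 fold change in DCKO was -2.81 ± 0.20 relative to DN3a (adjusted p = 1.8e-06) and -2.91 ± 0.20 relative to DN3b (adjusted p = 4e-06), while DN3b and DN3a differed by 0.10 ± 0.18 (adjusted p = 0.66). Trdv5 overlaps the end of the delta constant gene in the annotation, and since the strand setting of the counting is not given in the sources used here, transcripts of that gene cannot be told apart from its own.

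Trdv1 (chr14:53881612-53882217) held 0.856, 0.858, 0.853 and 0.455 CPM in DN3a, 1.07, 1.94, 1.83 and 1.37 in DN3b, and 0, 0, 0.131 and 0.255 in DCKO. All 3 groups were separate, with DN3b on top. The log2 fold change in DCKO was -2.90 ± 0.64 relative to DN3a (adjusted p = 0.0018) and -3.92 ± 0.63 relative to DN3b (adjusted p = 0.0012), on 13 counts in DCKO. The difference between DN3b and DN3a (1.03 ± 0.50) had an adjusted p of 0.10, and 0.0116 with the replicate number as a block, 0.0263 with DESeq2 and 0.02 with the 8 control libraries alone.
Trdv2-2 (chr14:53960944-53961602) stood at 1.43 ± 0.290 CPM (DN3a), 1.95 ± 0.605 (DN3b) and 0.474 ± 0.235 (DCKO). DCKO lay below DN3a (log2 -1.58 ± 0.36, adjusted p = 0.002) and below DN3b (-2.02 ± 0.36, adjusted p = 0.0021), without overlap. Trdv4, the fourth delta V member, had too few counts to test: 5 (DN3a), 25 (DN3b) and 5 (DCKO).

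Trdj1 (ENSMUSG00000076870, chr14:54123138-54123188, plus strand), the first delta J segment and the delta member with the most counts, held 11.8, 17.1, 14.0 and 16.1 CPM in DN3a, 13.6, 14.0, 12.1 and 13.9 in DN3b, and 21, 15.2, 26.0 and 16.1 in DCKO. DCKO overlapped DN3a, and its lowest library lay above the highest of DN3b. The log2 fold change was 0.41 ± 0.17 against DN3a (adjusted p = 0.059) and 0.55 ± 0.18 against DN3b (adjusted p = 0.044), and no other member was called higher in DCKO by edgeR. The call depended on single libraries and settings: the adjusted p against DN3b was 0.0582 with limma-voom, 0.0781 with upper quartile scaling, and 0.0539 to 0.162 on leaving out single libraries (numbers 3 and 4 of DN3a, each of DN3b, 1 and 3 of DCKO). Against DN3a it passed without DN3a library 2 (0.0467) or without DCKO library 2 (0.0331) or 4 (0.0332).
Trdj2 stood at 2.57 ± 0.444, 2.91 ± 0.628 and 2.45 ± 0.487 CPM and was called in no comparison, with -0.07 ± 0.23 in DCKO against DN3a (adjusted p = 0.82). The 2 D segments were near the limit of detection. Trdd2, the 16-base sequence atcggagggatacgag, had raw counts of 0, 8, 6 and 3 in DN3a, 14, 0, 3 and 1 in DN3b, and 7, 7, 17 and 13 in DCKO. Trdd1 had 10 counts in all 12 libraries together. Neither could be tested, and the groups overlapped for the sum of both.

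Per 100 delta J counts there were 61.0, 37.3, 47.9 and 42.1 delta V counts in DN3a, 47.0, 60.3, 71.8 and 64.3 in DN3b, and 5.15, 7.90, 5.04 and 9.22 in DCKO. The DCKO libraries again lay apart from both control groups, at a ratio 6.90-fold below DN3a and 8.91-fold below DN3b. In the annotation Trdj1 and both D segments overlap Gm30275, a gene outside the count table, and Trdj2 overlaps Gm43434, also outside it; the share of their counts that stems from those transcripts was not tested.

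**Figure D3:**
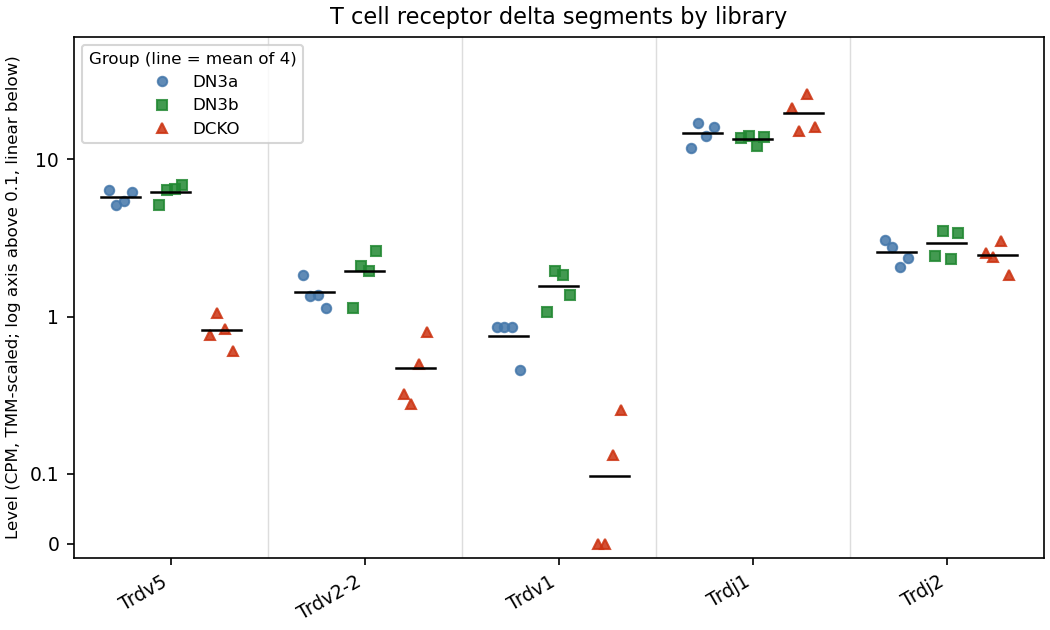
Levels of 5 delta segments by library, in CPM on an axis that is logarithmic above 0.1 and linear down to 0; points are libraries and bars are group means. The V segments Trdv5, Trdv2-2 and Trdv1 are low in every DCKO library, whereas Trdj1 and Trdj2 in DCKO overlap DN3a.

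Alpha members were scarce in all groups, at 17.7 ± 0.971 CPM (DN3a), 18.9 ± 0.696 (DN3b) and 9.49 ± 5.56 (DCKO) when all 40 were summed. The constant gene Trac was higher in DN3b than in DN3a and lower in DCKO than in DN3b. It is the exon set that every alpha chain uses. Trac (ENSMUSG00000076928, chr14:54220521-54224206, plus strand) had raw counts of 1, 16, 11 and 12 in DN3a, 35, 62, 73 and 119 in DN3b, and 4, 11, 1 and 4 in DCKO, or 0.245 ± 0.153, 2.04 ± 1.30 and 0.155 ± 0.116 CPM. DN3b lay above both other groups, which overlapped. It rose by 3.03 ± 0.63 on the log2 scale in DN3b against DN3a (8.14-fold, adjusted p = 0.0015), and was lower in DCKO than in DN3b (log2 -3.69 ± 0.68, 12.9-fold, adjusted p = 0.0027). DCKO and DN3a differed by -0.66 ± 0.74 (adjusted p = 0.46).
Alpha J members were counted only a few times, with raw sums of 1, 0, 1 and 3 in DN3a, 9, 15, 16 and 27 in DN3b, and 5, 2, 2 and 4 in DCKO. DN3b lay above the other groups. Traj30, Traj58, Traj60 and Traj61 reached the 10 counts of the rule only with their DN3b counts. The order of the sums thus follows in part from the choice of members and supports nothing further. Traj59, Traj60 and Traj61, at the end of the J array nearest the delta locus, held 22, 12 and 15 of the DN3b counts. All 11 counts of Traj30 came from DN3b library 4, which was also the library with the most Trac. None of the 5 alpha J members had enough counts to be tested.

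Alpha V segments fall into those that delta chains can use as well and the others. Of the 9 members with dv in the symbol, 7 were tested, and all 7 were lower in DCKO than in DN3a and than in DN3b. Of 25 members without it, 8 were tested. Lower in DCKO were 3 of these against DN3a (Trav16, Trav14-2 and Trav2) and 2 against DN3b (Trav16 and Trav14-2). Over all genes, 29.5% were lower in DCKO than in DN3a and 8.58% than in DN3b. The 3 of 8 thus stood near the share of all genes. Members that entered the test through controls where they are high had to differ, so these counts support nothing further. With the 8 libraries of DCKO and DN3a alone, 25 members of the 3 loci were tested and 18 were lower. Summed over all 9, the dv segments held 5.72, 6.10, 5.66 and 5.72 CPM in DN3a, 7.07, 8.86, 7.40 and 7.65 in DN3b, and 0.806, 0.752, 0.941 and 1.47 in DCKO. The groups were separate, with DN3b highest and DCKO 5.85-fold below DN3a. Whether dv and other segments differed in their response was not tested, and the other segments without Trav17 and Trav18 were also separate, at 3.51 ± 0.189, 5.03 ± 0.241 and 1.07 ± 0.448 CPM.

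Trav15-2-dv6-2 was the most abundant dv segment in the controls. It held 2.21, 2.67, 2.30 and 2.18 CPM in DN3a, 2.29, 2.28, 1.75 and 3.48 in DN3b, and 0.0403, 0.0557, 0.209 and 0.83 in DCKO. The controls overlapped, and DCKO lay below both. In DCKO its log2 fold change was -3.02 ± 0.59 from DN3a (adjusted p = 0.00075) and -3.09 ± 0.59 from DN3b (adjusted p = 0.0035).
Trav15-1-dv6-1 held 1.48, 1.46, 1.26 and 1.69 CPM in DN3a, 1.74, 2.70, 2.33 and 2.15 in DN3b, and 0.242, 0.278, 0.288 and 0.319 in DCKO, with no overlap between groups. It was lower in DCKO than in DN3a (log2 -2.36 ± 0.24, adjusted p = 8.3e-06) and than in DN3b (-2.96 ± 0.24, adjusted p = 9.1e-06). Its rise from DN3a to DN3b (0.60 ± 0.21, adjusted p = 0.026) was lost with upper quartile scaling (0.0796) and without DN3a library 2 or 3 or DN3b library 2 or 3 (0.0582 to 0.098), and had an adjusted p of 0.0379 with the replicate block.
Trav21-dv12, which lies just before Trdv1, stood at 0.382 ± 0.269 CPM (DN3a), 1.01 ± 0.284 (DN3b) and 0.0589 ± 0.0524 (DCKO), and rose in DN3b (log2 1.35 ± 0.49, adjusted p = 0.034). That rise was lost with upper quartile scaling (0.0579) and without DN3a library 1, 3 or 4 or DN3b library 2 or 3 (0.0689 to 0.0946), and passed with the replicate block (0.00713). In DCKO it was lower than in DN3a (log2 -2.63 ± 0.67, adjusted p = 0.0042) and than in DN3b (-3.98 ± 0.64, adjusted p = 0.0011), on 8 counts. DCKO lay below DN3b and overlapped DN3a, with 0.128 CPM in DCKO library 4 and 0.118 in DN3a library 1. The count of members higher in DN3b thus went from 3 to 1, Trac, without DN3b library 2 or without DN3b library 3.

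Alpha V segments occur in near copies along the locus, as the ends of Trav15-1-dv6-1 and its copy in the duplicated stretch show, with capitals where they differ.
Trav15-1-dv6-1: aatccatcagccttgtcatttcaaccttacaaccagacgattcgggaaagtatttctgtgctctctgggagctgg
Trav15d-1-dv6d-1: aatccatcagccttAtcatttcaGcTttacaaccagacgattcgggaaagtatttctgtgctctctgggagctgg
They differ at 3 of these 75 bases and are 96.0% identical over their transcripts. Trav15d-1-dv6d-1, named here for that likeness, had 0.237 ± 0.0923, 0.368 ± 0.0692 and 0.0368 ± 0.0433 CPM and was lower in DCKO than in DN3a (log2 -2.52 ± 0.66, adjusted p = 0.0055). Of the 34 alpha V members, 24 share a stretch of 100 bases or more with another annotated segment of these loci, member or not, with a median longest stretch of 123 bases over all 34, so the split of counts among copies is uncertain.
Further falls in DCKO against DN3a were -3.70 ± 0.71 for Trav16 (adjusted p = 0.00064), -3.10 ± 0.60 for Trav16d-dv11 (0.00071) and -2.77 ± 0.61 for Trav13-4-dv7 (0.0017). Each of these rested on 3 to 6 counts in DCKO. Against DN3b the falls were -4.04 ± 0.69, -3.41 ± 0.59 and -3.28 ± 0.59.

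Trav17 and Trav18, neighbours near the delta end of the V array, were called in neither DCKO comparison. Trav17 (ENSMUSG00000096397, chr14:53806639-53807115), the most abundant alpha member, held 7.70, 7.15, 6.30 and 5.88 CPM in DN3a, 5.12, 3.07, 2.15 and 1.2 in DN3b, and 3.83, 5.04, 1.88 and 10.7 in DCKO. DN3b lay below DN3a, and DCKO spanned both. Its fall in DN3b was -1.22 ± 0.47 (adjusted p = 0.045). The call ended, with adjusted p from 0.053 to 0.109, on leaving out single libraries (each of DN3a, numbers 2, 3 and 4 of DN3b, 1 and 2 of DCKO). With the replicate number as a block the change was -1.39 (adjusted p = 0.0017), and each DN3b library lay below the DN3a library of its number. Its DCKO level was called different from neither control (adjusted p = 0.55 and 0.21).
Trav18 (chr14:53831105-53831827) held 1.62, 1.34, 1.45 and 0.975 CPM in DN3a, 1.0, 0.687, 0.690 and 0.716 in DN3b, and 1.57, 1.22, 0.209 and 4.27 in DCKO. DN3b overlapped DN3a slightly, and DCKO overlapped both. The change from DN3a to DN3b was -0.80 ± 0.59 (adjusted p = 0.27), or -0.83 with the replicate number as a block (adjusted p = 0.0142). Both segments were high in DCKO library 4 and low in DCKO library 3. The change of Trav18 in DCKO against DN3b (1.22 ± 0.59, adjusted p = 0.16) passed without DCKO library 3 (1.59, adjusted p = 0.0247), and its sign against DN3a turned without DCKO library 4 (0.42 to -0.45). Together the pair made up 46.4% ± 3.07 of alpha V counts (DN3a), 21.6% ± 8.55 (DN3b) and 71.8% ± 18.9 (DCKO). DCKO library 3, at 44.0%, lay within the range of DN3a, and DN3b was separate from both.

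**Figure D4:**
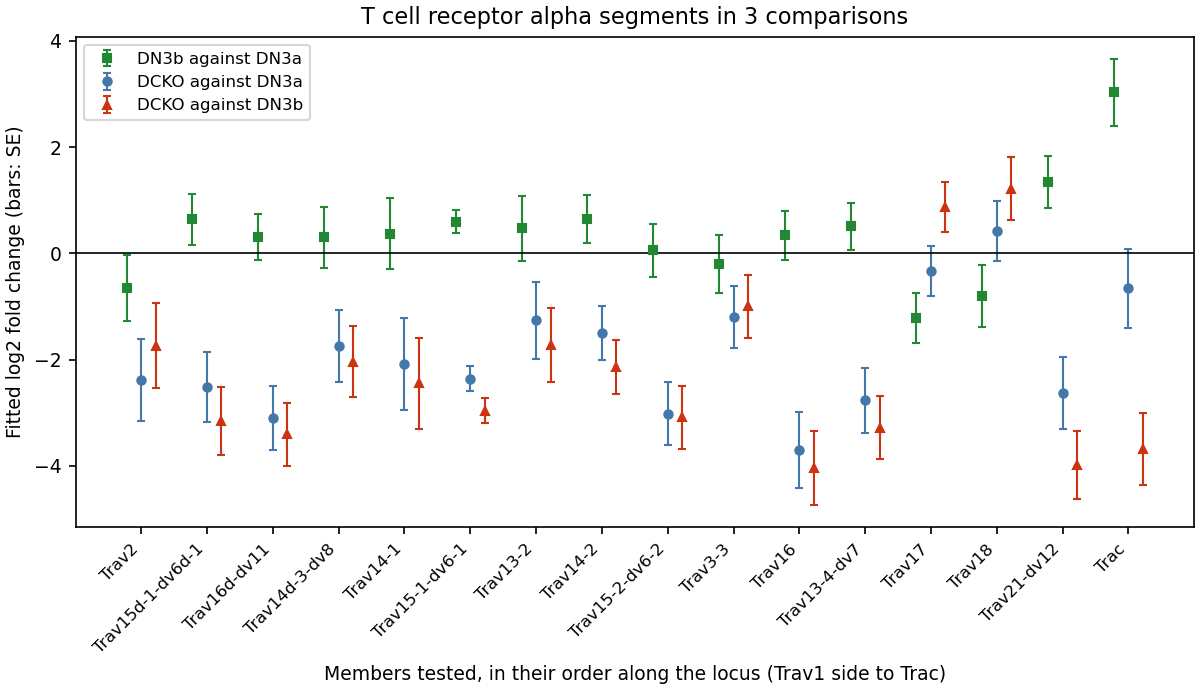
Fitted log2 fold changes of the 16 tested alpha members, in their order along the locus, with bars of 1 SE, for DN3b against DN3a and DCKO against each control. Both DCKO comparisons lie below 0 for most V segments, Trav17 and Trav18 lie near or above 0, and Trac is higher in DN3b than in DN3a.

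**Figure D5:**
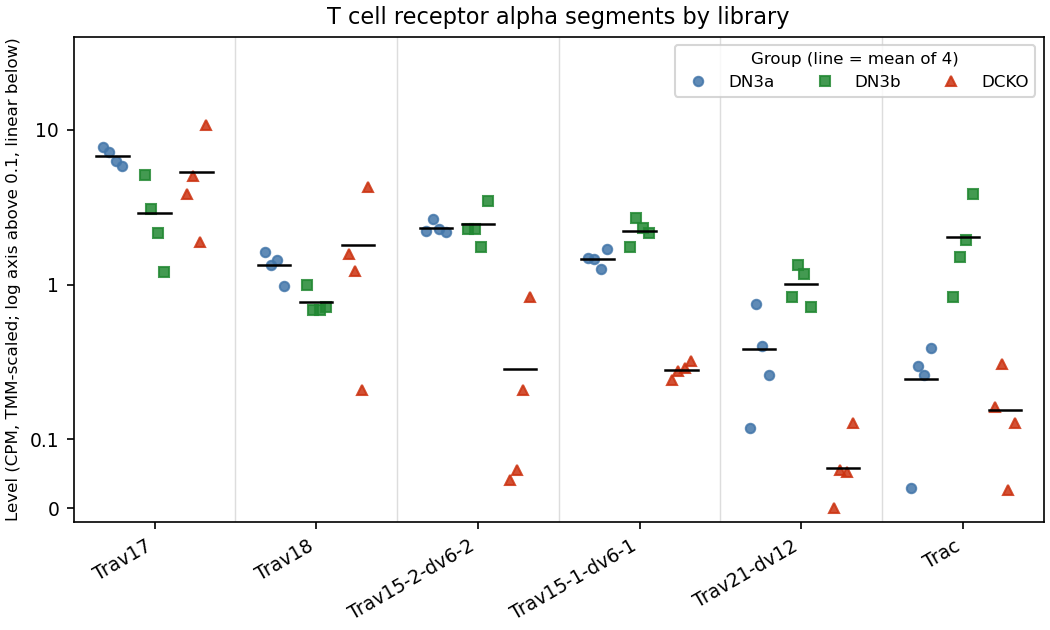
Levels of 6 alpha members by library, in CPM on an axis that is logarithmic above 0.1 and linear down to 0; points are libraries and bars are group means. Trac is highest in the DN3b libraries, the 3 dv segments have their lowest group mean in DCKO, and Trav17 and Trav18 spread widely in DCKO. For Trav21-dv12, DCKO library 4 lies just above DN3a library 1.

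Over the 3 loci, 18 members were lower in DCKO than in both control groups: 5 gamma V segments and Tcrg-C2, 3 delta V segments, and 9 alpha V segments. A further 6 were lower than in DN3a only, among them Tcrg-C1, Tcrg-C3, Tcrg-C4 and Trgj4. Trac alone was lower than in DN3b only. Taken singly, 29.5% of all genes were lower in DCKO than in DN3a and 8.58% than in DN3b. The share of all genes lower than in both was not computed. In the authors' deposited tables, 23 members were lower and 1 higher in DCKO against DN3a, and 23 lower and 1 higher against DN3b. There, 13 were lower and 11 higher in DN3b against DN3a. In that order, those tables hold an adjusted p for 47, 40 and 58 of the 60 members, beside 33 tested here. Shares of all genes in them were not computed, so these counts are not set against those given above.

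Other genes of receptor assembly were read from lists of locus regulators, recombination enzymes and the CD3 and pre-TCR complex, chosen with earlier results of these data in view. Their counts stand beside the shares of all genes: 27.4% higher and 25.2% lower in DN3b against DN3a, 30.7% and 29.5% in DCKO against DN3a, and 10.3% and 8.58% in DCKO against DN3b. Of 15 recombination genes, all tested, 6 were higher and 3 lower in DCKO against DN3a, and 4 higher and 2 lower against DN3b. In DN3b against DN3a, 4 were higher and 5 lower. Rag1, a subunit of the recombinase, stood at 1812 ± 500.8 CPM (DN3a), 997.4 ± 423.4 (DN3b) and 4315 ± 2123 (DCKO), higher in DCKO by 1.25 ± 0.36 than in DN3a (adjusted p = 0.0088) and by 2.11 ± 0.37 than in DN3b (adjusted p = 0.0019). Its partner Rag2 stood at 177.3 ± 21.1, 70.4 ± 29.1 and 171.6 ± 51.1 CPM and was higher in DCKO than in DN3b by 1.28 ± 0.27 (adjusted p = 0.0061), while -0.05 ± 0.27 separated it from DN3a (adjusted p = 0.89). The joining genes Lig4 and Xrcc4 were higher in DCKO than in DN3a by 0.42 ± 0.17 (adjusted p = 0.043) and 0.38 ± 0.13 (adjusted p = 0.022). The 3 lower genes of the list were Poll (log2 -1.82 ± 0.46, adjusted p = 0.0042), Dclre1c (-1.03 ± 0.19, 0.00045) and Prkdc (-0.48 ± 0.11, 0.0027). Hmgb2, which encodes a DNA-bending protein that also rises in dividing cells, was higher by 2.41 ± 0.33 (adjusted p = 6.2e-05).

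Of 25 locus regulators, 23 were tested. DN3b against DN3a gave 9 higher and 5 lower, DCKO against DN3a 7 and 5, and DCKO against DN3b 3 and 3. The count higher in DCKO against DN3a was near the share of all genes (30.7%). Il7r, the interleukin 7 receptor chain whose signal opens the gamma locus, stood at 119.9 ± 14.3, 79.9 ± 7.58 and 63.7 ± 9.27 CPM and fell by 0.58 ± 0.12 in DN3b (adjusted p = 0.0016) and by 0.91 ± 0.12 in DCKO against DN3a (adjusted p = 5.2e-05). Id3, an inhibitor of E proteins induced by receptor signals, rose in DN3b by 2.02 ± 0.26 (adjusted p = 7.5e-05) and stood at 3.82 ± 1.35 CPM in DCKO, beside 4.27 ± 0.898 in DN3a and 17.4 ± 3.80 in DN3b. Egr1, an immediate early factor upstream of Id3, was lower in DCKO than in DN3a (log2 -3.67 ± 0.48, adjusted p = 4.2e-05). Cbfb, the partner of the RUNX factors, was higher in DCKO than in DN3a by 1.11 ± 0.14 (adjusted p = 3.6e-05). Tcf7 and Lef1, a pair of related T lineage factors, both rose in DN3b (0.99 ± 0.18 and 0.67 ± 0.18), and in DCKO Lef1 was lower than in DN3b (log2 -1.28 ± 0.18, adjusted p = 0.00055).

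Of the 8 genes of the CD3 and pre-TCR complex, 2 were higher and 6 lower in DN3b against DN3a, 2 higher and 1 lower in DCKO against DN3a, and 2 higher and 0 lower in DCKO against DN3b, beside the same shares of all genes. The beta constant genes, in contrast to those of the gamma locus, were higher than in DN3a in both groups: Trbc1 by 0.36 ± 0.11 in DN3b (adjusted p = 0.019) and 0.68 ± 0.11 in DCKO (adjusted p = 0.00025), and Trbc2 by 0.67 ± 0.09 (adjusted p = 1e-04) and 0.52 ± 0.09 (adjusted p = 0.00034). Cd3g, a signalling chain that all receptors share, fell by 1.19 ± 0.16 in DN3b (adjusted p = 0.00012) and stood in DCKO 1.26 ± 0.17 above DN3b (adjusted p = 0.00029). Ptcra, the surrogate alpha chain of the pre-TCR, went from 136.6 ± 68.4 to 62.2 ± 44.7 CPM in DN3b (-1.13 ± 0.42, adjusted p = 0.036) and stood at 97.1 ± 28.2 in DCKO.

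Of 11 markers of gamma-delta T cells, 9 were tested. In DN3b against DN3a, 1 was higher (Etv5, 2.46 ± 0.49, adjusted p = 0.0011) and 2 were lower. In DCKO, 4 were lower and 0 higher than in DN3a, and against DN3b 1 was higher (Zbtb16, 1.52 ± 0.42, adjusted p = 0.025) and 2 lower. Over all genes, 29.5% were lower and 30.7% higher than in DN3a, and 8.58% and 10.3% than in DN3b. Sox13, a factor of the gamma-delta lineage that DN3 cells also express, stood at 18.5 ± 7.66, 15.3 ± 2.36 and 13.2 ± 2.77 CPM and was called in no comparison (adjusted p = 0.40, 0.13 and 0.60). Maf, a factor of interleukin 17 producing gamma-delta cells, stood at 3.66 ± 1.03 CPM (DN3a), 0.639 ± 0.342 (DN3b) and 0.574 ± 0.207 (DCKO), a fall of log2 -2.50 ± 0.37 in DN3b (adjusted p = 0.00019) and of -2.67 ± 0.38 in DCKO (adjusted p = 7.6e-05). Il1r1 was lower in DCKO than in DN3a (log2 -2.95 ± 0.46, adjusted p = 0.00014). Against DN3b, Il1r1 was lower in DCKO as well (-2.36, adjusted p = 0.0044) and Maf was not called (-0.18, adjusted p = 0.79). The part of gamma-delta T cells among the sorted cells in these results was not tested.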

How the data were processed

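Per the labels, RNA was extracted with the RNeasy Micro Kit, and 20 to 200 ng was depleted of ribosomal RNA for TruSeq Stranded Total RNA libraries. Genome build GRCm38 and the tools HTSeq, TopHat2 2.0.12, DESeq2 1.6.3 and Trim Galore are listed in the submitters' processing notes. Not given in the sources used here are the annotation release, the strand setting and the treatment of reads with several matches. The authors deposited raw counts per Ensembl gene, from which all levels and tests were computed. A deposited signal table held those counts divided by 1 size factor per library and served only as a check. The authors deposited DESeq2 tables with log2 fold changes, a Wald score and p-values, which were used for counts of members only.

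Symbols, positions and sequences came from GENCODE M21, with a symbol for 42462 genes and none for 1167. With R 4.3.3 and edgeR 4.0.16, 13944 genes passed filterByExpr (count minimum 10) and entered 1 quasi-likelihood fit of the 12 libraries on group, with TMM factors and 9 residual degrees of freedom. Tests were two-sided, with Benjamini-Hochberg adjustment over all genes tested and a threshold of 0.05. A standard error is the log2 fold change divided by the square root of F, and folds are antilogs of fitted values. Summed levels and ratios have no test. The fit was tested on simulated data. Alternatives used DESeq2 1.42.0, limma 3.58.1, other scalings and filters, fewer libraries and a replicate block. Spreads between libraries are given in place of counting intervals, since PCR copies were not separated.

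Same-numbered DN3a and DN3b libraries deviated together from their group means (correlations of 0.443, 0.564, 0.354 and 0.521), so the replicate number pairs these stages. No pair of replicates was alike within counting noise. Members and lists were chosen with earlier results of these data known. Named members are the C genes, the 4 highest of each locus and segment class, and the 8 largest rises and falls called per comparison. Named other genes are the targeted genes, a set of stage genes and up to 3 genes per list and comparison with the smallest adjusted p. Of these, Cd3d and Hmgb1 were left out after their values were seen. A further gene that the rule names is not reported here. Tcrg-V5, Trav15d-1-dv6d-1, Trav14-2, Trav2, Ighm, Cd79b, Nkg7, Lyz2, Cebpb, Itgam, Cd8a, Cd8b1, Arpp21, Themis, Poll, Prkdc and 5830411N06Rik stand outside the rule and were named after their values were seen.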

Additional observations from a re-analysis of the deposited data

Results flagged for a closer look

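In 7 of 147 groups of 4 libraries examined, 1 library stood far from the other 3 by Dixon's 95% criterion, which sets the gap to the nearest library against the range of the group; chance flags about 1 group in 20. Tcrg-C4 was low in DN3b library 3 (70.3 CPM, the others 94.9 to 96.8). Tcrg-V3 was high in DN3b library 4 (2.67 CPM, the others 0.786 to 0.876). Tcrg-V4 was high in DCKO library 3 (5.28 CPM, the others 2.90 to 3.28). Trav18 was high in DN3b library 1 (1.0 CPM, the others 0.687 to 0.716), and Trdv1 was low in DN3a library 4 (0.455 CPM, the others 0.853 to 0.858). Of the sums, the alpha locus was low in DN3b library 3 (17.9 CPM, the others 19.2 to 19.4), and the alpha V segments with dv in the symbol were high in DN3a library 2 (6.10 CPM, the others 5.66 to 5.72).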

How the results depend on the processing

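Members lower in DCKO against DN3a numbered 24, with a range of 22 to 25 when single libraries were left out, and 14 of 18 tested with the stricter filter. Without DCKO libraries 1 and 2 together they numbered 21 of 36 tested, and 18 of 25 with the 8 libraries of the comparison alone. Against DN3b they numbered 19 (18 to 23 without single libraries), and 10 of 18 with the stricter filter, which tests fewer members. There the count was 16 of 36 without DCKO libraries 1 and 2, and 17 of 30 with the 8 libraries alone. In DN3b against DN3a, 12 were lower (8 to 12 without single libraries) and 3 higher (1 to 4). The higher count was 7 with DESeq2, 7 with no filter, 1 with upper quartile scaling and 1 with the stricter filter. Higher members in DCKO against DN3a numbered 0 (0 to 1 without single libraries) and 1 with DESeq2. Against DN3b the count of 1 became 0 with limma-voom, upper quartile scaling, no filter, the 8 libraries alone, the replicate block or without DCKO libraries 1 and 2 (0 to 1 without single libraries). The cause was not tested.

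The median log2 change over all genes became -0.17 (DN3b against DN3a) and -0.26 (DCKO against DN3a) under upper quartile scaling, and -0.22 and -0.38 under plain library sizes. The summed gamma level changed by -1.22 in DN3b against DN3a (-1.31 to -1.13 without single libraries) and by -1.42 with plain library sizes. The summed delta change in DN3b against DN3a (0.05, range 0.01 to 0.09) turned to -0.16 with plain sizes and -0.10 with upper quartile scaling. In DCKO against DN3a it was -0.10 (-0.25 to -0.01), -0.44 with plain sizes and 0.00 without DCKO libraries 1 and 2. The summed alpha change in DN3b against DN3a (0.10, range 0.06 to 0.12) turned to -0.11 with plain sizes, -0.05 with upper quartile scaling and -0.03 over members with at least 100 counts.

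Signs that turned belonged to changes that passed no threshold. In DN3b against DN3a, Trav15-2-dv6-2 became 0.00 or lower (-0.00 with limma-voom and the replicate block, -0.09 with upper quartile scaling, -0.17 without DN3b library 4, with a range up to 0.19 over single libraries left out), Trdv5 -0.04 with upper quartile scaling, Egr1 0.07 without DN3a library 1 (range from -0.28) and Sox13 0.01 without DN3a library 4 (range from -0.48). In DCKO against DN3a, Trav18 became -0.30 with limma-voom, -0.12 with the replicate block and -0.45 without DCKO library 4 (range up to 0.78). Trdj2 became 0.02 without DN3a library 1 and 0.06 without DCKO library 4, and Tcrg-V5 -0.02 without DCKO library 1 (range up to 0.62) and -0.39 without DCKO libraries 1 and 2. Cd3g became -0.15 with upper quartile scaling, Etv5 -0.12 without DCKO library 4 (range up to 0.68), and Rag2 0.01 without DN3a library 2 and 0.13 without DCKO library 4 (range from -0.23). In DCKO against DN3b, Tcrg-C1 became 0.12, 0.03 and 0.05 in the settings given above (range from -0.50), and Maf 0.24 without DN3b library 1 (range from -0.41).

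With the replicate number as a block, 4 members were higher and 13 lower in DN3b against DN3a, with Trdv1 and Trav18 added. DCKO shares only numbers with the controls (correlations from -0.257 to 0.119). There the block left 20 members lower against DN3a and 15 against DN3b, of 25 and 30 tested, and Tcrg-C2 against DN3b had an adjusted p of 0.0641. Members with few counts limit the depth: 27 of 60 could not be tested.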
